A study of Rattus norvegicus with 15 samples.

Results

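Chemokines are small secreted proteins that direct the migration of cells, and their receptors are G protein-coupled receptors on the cells that respond. This account follows 53 chemokine and chemokine receptor genes, 34 ligands and 19 receptors, through 5 life stages of rat knee articular cartilage. They are all genes of the array annotation used here that are named Ccl, Cxcl, Ccr or Cxcr with a number, together with Cx3cl1, Cx3cr1, Xcl1, Xcr1 and the atypical receptors named Ackr, among 18166 named genes in all. Each of the 53 genes had 1 probe set. Other genes of the family were not counted as members, and 4 chemokine-related genes with other names are described apart.

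The cartilage came from the right knee of Sprague-Dawley rats, harvested individually and frozen, and total RNA was hybridised to 15 rat gene arrays. T0 is newborn, T1 youth and T2 adult, and T3 and T4 are an early and a late stage of old age. Each stage has 3 arrays, which the labels call biological replicates. The labels give no treatment or genetic change, and neither age nor sex is given in the sources used here.

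Ligands named Ccl bind receptors named Ccr and ligands named Cxcl bind receptors named Cxcr. Inflammatory ligands such as Ccl2 or Cxcl1 are made on demand and draw monocytes or neutrophils, whereas homeostatic ligands such as Cxcl12 are made steadily and place cells in marrow, lymph node or gut. Healthy articular cartilage has no vessels and few resident leukocytes, and bone marrow, rich in Cxcl12 and in Cxcr4-bearing cells, lies under the joint surface.

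Levels below are log2 signals. A change is the later stage's mean log2 signal minus the earlier stage's, given with the standard error (SE) that limma moderates over all probe sets, from 3 arrays per stage. A gene was called, and is said to have risen or fallen, at a Benjamini-Hochberg adjusted p under 0.05 over all 36685 probe sets. As a yardstick of low signal, each array's 95th percentile of 1194 olfactory receptor probe sets was used, which averaged 4.90, 4.83, 4.86, 5.29 and 6.23 from T0 to T4. A gene was counted above it in a stage when all 3 arrays exceeded their own percentile. Probe sets differ in brightness for reasons other than abundance, so no order between genes is read from their levels.

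The arrays differed between stages in more than these genes. The standard deviation over probe sets lay between 2.00 and 2.05 in the T0, T1 and T2 arrays, between 1.83 and 1.97 at T3 and between 1.48 and 1.71 at T4, and T4 replicate 1 stood farthest apart. The 9 measured chondrocyte markers averaged 9.91, 9.90, 9.12, 7.76 and 6.50 from T0 to T4. Markers of other tissues were also present: 8 skeletal muscle genes averaged 11.25 at T0, 8.32 at T1 and 4.65 at T2, and 6 erythroid genes averaged 5.25 at T0, 10.14 at T1 and 9.78 at T2. The 12 neutrophil and myeloid genes averaged 5.50, 8.75, 10.27, 9.67 and 8.49 from T0 to T4. In bulk tissue, fewer cells of a type and less RNA per cell cannot be told apart.

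Over the 5 stages, 31 of the 53 genes passed limma's moderated F test, against 60.1% of all probe sets and 67.9% of all named genes. The count of members above the olfactory yardstick was 21, 27, 23, 17 and 2 from T0 to T4. The median level of the members was 4.93, 5.01, 4.96, 5.17 and 5.44 in the same order. The yardstick itself averaged 4.90 at T0 and 6.23 at T4. Cxcl12 and Cxcl14 were above it in every stage, and 24 genes were above it in none. Of the genes that passed, 16 had T4 as the stage with the highest mean, and 4, 2, 4 and 5 peaked at T0, T1, T2 and T3. Among all features that passed, T4 was the highest stage for 37.5% of probe sets, 29.3% of named genes and 92.1% of the olfactory receptor probe sets, and 0 of the 16 members were above the olfactory yardstick at T4.

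**Figure D1:**
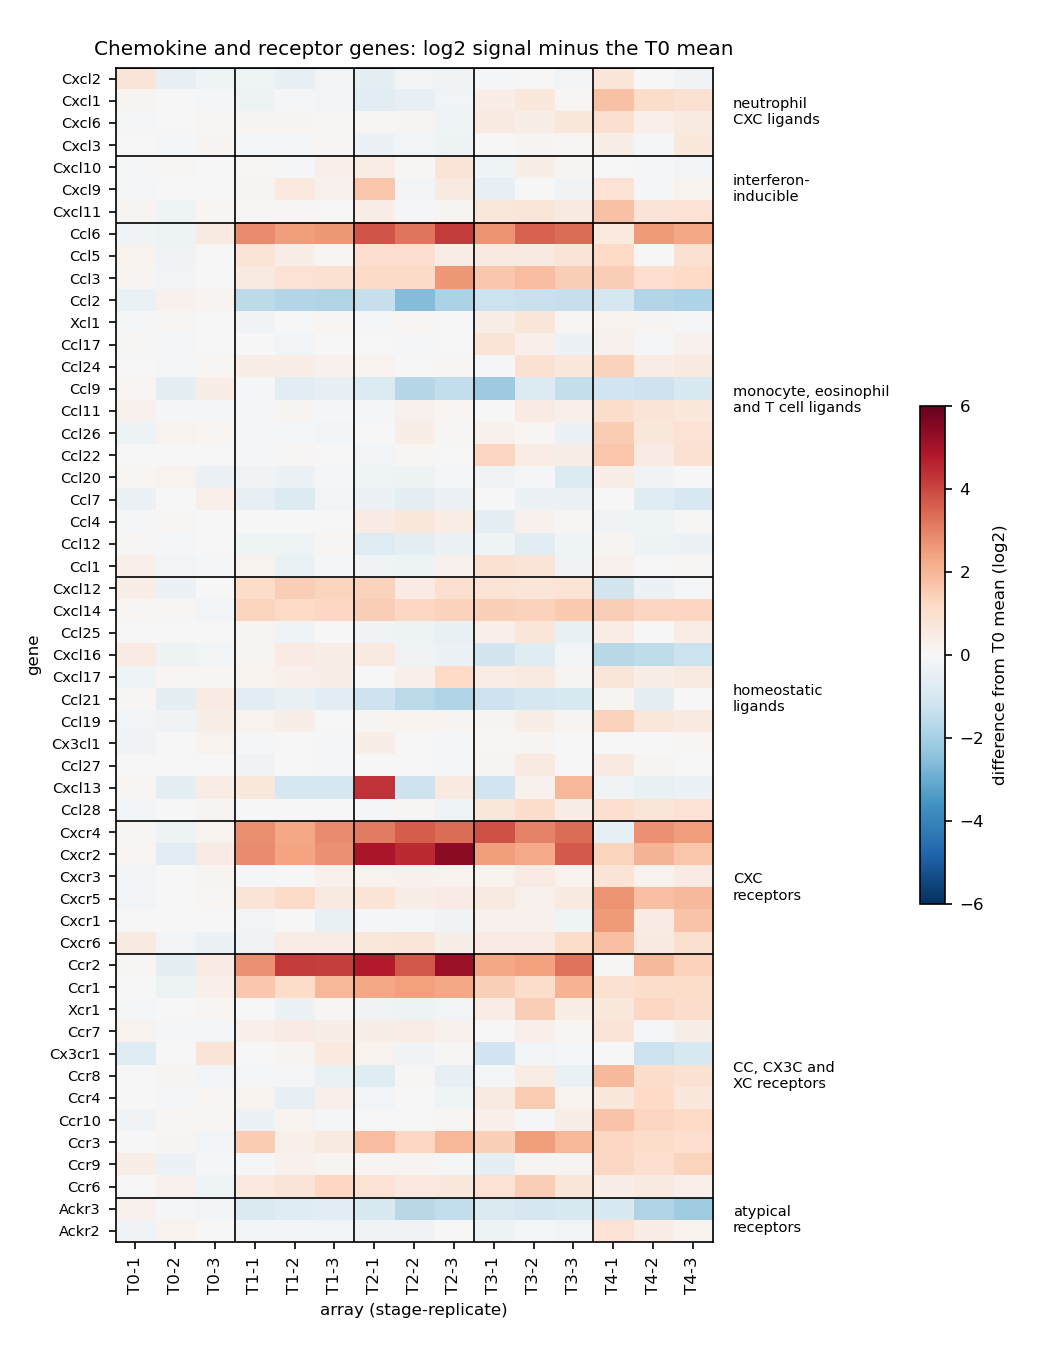
Log2 signal of each of the 53 genes in each of the 15 arrays, minus the gene's T0 mean (colour, red higher and blue lower, with the scale at the side), with genes grouped by role and arrays in stage order. Cxcr2, Ccr2, Ccl6, Cxcr4 and Ccr1 are red at T1, T2 and T3, Ccl2 and Ackr3 are blue, and most ligands stay pale until T4.

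In youth cartilage, the receptors Ccr2, Cxcr2, Cxcr4, Ccr1 and Ccr6 were higher than in newborn cartilage, 5 of 19 receptors. Among 34 ligands, 3 rose and 1 fell. Of these receptors, Ccr6 was above the olfactory yardstick in no stage. In all, 8 genes rose and 1 fell among 53 members at T1 against T0, beside 7.56% of all probe sets called in either direction. Among all named genes 11.2% were called, 6.28% that rose and 4.93% that fell. The risers were Ccr2, Cxcr2, Ccl6, Cxcr4, Ccr1, Cxcl12, Cxcl14 and Ccr6, and the gene that fell was Ccl2. The median change over the 53 genes was 0.00, against -0.03 over all probe sets. In adult cartilage, 9 genes rose and 4 fell against newborn, where 12.7% of all probe sets and 18.8% of all named genes were called (9.25% rose and 9.56% fell among named genes). Of the genes called at T1 and T2 against T0, 8 were shared with the same sign, 7 that rose and 1 that fell, in comparisons that share the T0 arrays. Arrays did not overlap for 18 of 53 members at T1 against T0, for 13 at T2 against T1 and for 25 at T2 against T0, beside 32.3%, 22.4% and 36.3% of all probe sets.

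Cxcr2, the receptor through which Cxcl1 and its relatives draw neutrophils, was higher at T1 and T2 than at T0. Its log2 signal was 4.40, 3.63 and 4.77 (T0), 7.12, 6.63 and 7.01 (T1), 9.17, 8.76 and 9.63 (T2), 6.76, 6.56 and 7.95 (T3) and 5.61, 6.31 and 5.93 (T4). The arrays of T0, T1 and T2 did not overlap with each other, and every T4 array was below every T3 array. Cxcr2 rose by 2.65 at T1 over T0 (SE 0.38, limma adjusted p 0.000392) and by a further 2.27 at T2 over T1 (SE 0.38, limma adjusted p 0.0097). The change of T2 over T0 was 4.92 (SE 0.38, limma adjusted p 7.72e-07). Its T0 signal was above the olfactory yardstick on 0 of 3 arrays, so the size of the rise is a bound: against that yardstick the T2 signal was at least 19.6-fold higher. It was the only member called at T2 against T1, where 0.891% of all probe sets and 1.27% of named genes were called (0.633% rose), and 9 members had an unadjusted p under 0.05, beside 8.52% of all probe sets. That call ended without T1 replicate 2 (2.13, limma adjusted p 0.06) or T2 replicate 3 (2.05, limma adjusted p 0.0684), and with T1 replicate 3, whose source name reads adult, placed at T2 (1.77, limma adjusted p 0.924).

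The Cxcl ligands of Cxcr2 among the members were not called at the steps at which it rose. None of Cxcl1, Cxcl2, Cxcl3 and Cxcl6, all neutrophil attractants, was called in T1 against T0, T2 against T1 or T2 against T0. Their T2 minus T0 changes ranged from -0.44 to 0.01. Cxcl1, Cxcl3 and Cxcl6 were above the olfactory yardstick in no stage, and Cxcl2 was above it at T0, T1, T2 and T3. Low signal limits what can be said of the missing calls in the first 3. Cxcl1 had signals of 4.94, 4.79 and 4.66 (T0), 4.48, 4.69 and 4.64 (T1), 4.13, 4.29 and 4.65 (T2), 5.20, 5.41 and 4.91 (T3) and 6.54, 5.92 and 5.73 (T4). Its T2 minus T0 change of -0.44 had a 95% confidence interval of -0.94 to 0.05. Ppbp, a platelet ligand of Cxcr2 that lies beside Cxcl6 but is named outside the family pattern, rose by 5.26 at T2 over T0 (SE 0.48, limma adjusted p 3.62e-06). Cxcr1, the neighbour of Cxcr2 and also a neutrophil receptor, changed by -0.12 at T2 over T0 (95% confidence interval -0.91 to 0.68). It too was above the yardstick in no stage. The 12 neutrophil and myeloid markers, 11 of which rose at T1 and at T2 over T0, averaged 10.17 to 10.35 in the T2 arrays against 4.84 to 6.01 in the T0 arrays. Their part in the Cxcr2 change was not tested.

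Ccr2, the monocyte receptor for Ccl2, rose while Ccl2 fell. Ccr2 had signals of 5.10, 4.43 and 5.49 (T0), 7.73, 9.22 and 9.14 (T1), 9.75, 8.74 and 10.12 (T2), 7.33, 7.45 and 8.26 (T3) and 5.06, 6.93 and 6.40 (T4). All T1, T2 and T3 arrays lay above all T0 arrays. Ccr2 rose by 3.69 at T1 over T0 (SE 0.53, limma adjusted p 0.000397) and by 4.53 at T2 over T0 (SE 0.53, limma adjusted p 2.89e-05). Its T0 signal was above the olfactory yardstick on 2 of 3 arrays. Ccl2, the main monocyte attractant, had signals of 6.81, 7.50 and 7.37 (T0), 5.64, 5.49 and 5.41 (T1), 5.87, 4.64 and 5.31 (T2), 5.92, 5.90 and 5.86 (T3) and 6.23, 5.46 and 5.40 (T4). The newborn arrays were the highest for Ccl2, with no overlap with any later array. Ccl2 fell by 1.72 at T1 (SE 0.30, limma adjusted p 0.00194) and by 1.96 at T2 (SE 0.30, limma adjusted p 0.00035) against T0. Both calls held in each alternative. Skeletal muscle markers were highest at T0 as well (8 of 8 fell at T1 and at T2 against T0), and 2 of 11 macrophage markers rose at T1. The part of those cells in the Ccl2 and Ccr2 changes was not tested.

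**Figure D2:**
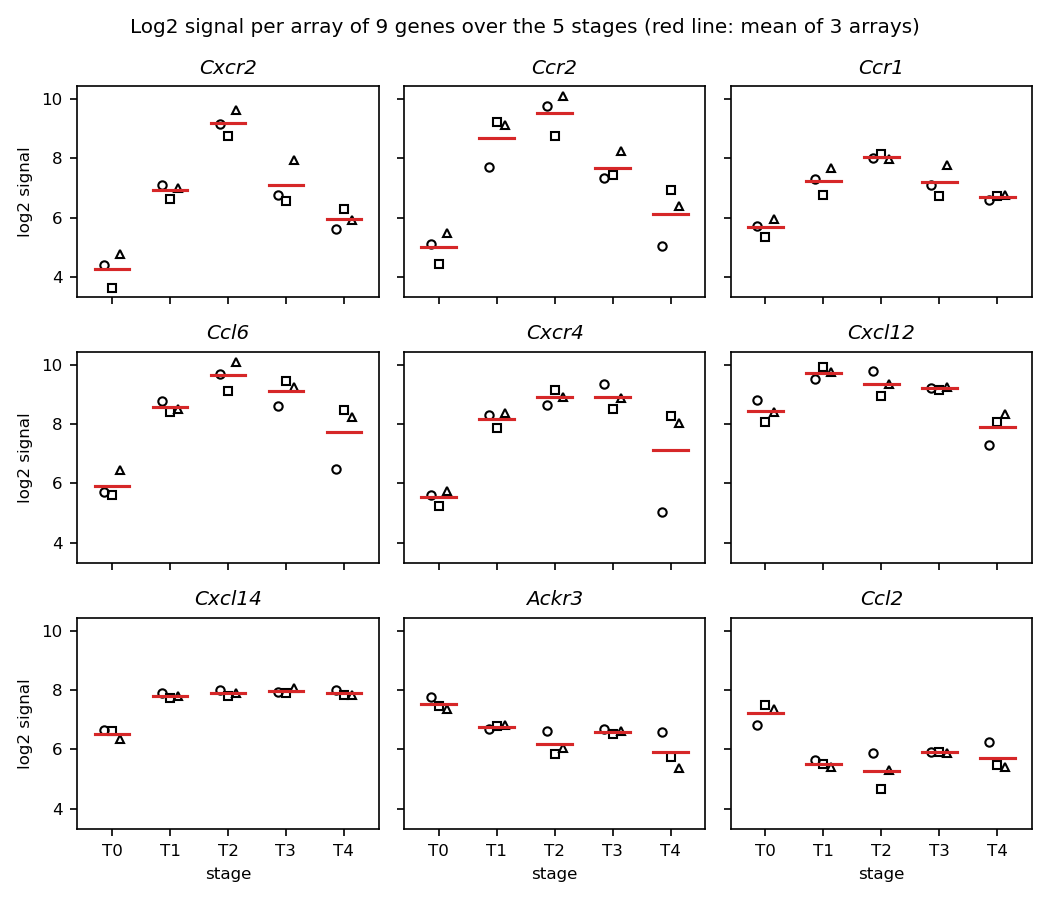
Log2 signal (vertical axis) of 9 genes in the 3 arrays of each stage (circle, square and triangle for replicates 1, 2 and 3), with the stage mean as a red line. Cxcr2 and Ccr2 peak at T2, Cxcl14 averages 7.80 to 7.98 at T1 to T4, Ccl2 is highest at T0, and T4 replicate 1 lies apart for Cxcr4 (5.05).

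Ccr1, a receptor for Ccl3, Ccl5 and in mouse also Ccl6, also rose at T1 and T2. It had signals of 5.71, 5.35 and 5.97 (T0), 7.32, 6.77 and 7.66 (T1), 8.01, 8.16 and 7.98 (T2), 7.09, 6.72 and 7.77 (T3) and 6.59, 6.72 and 6.78 (T4). Every T2 array was above every array of the other stages. The rise was 1.57 at T1 (SE 0.28, limma adjusted p 0.00208) and 2.37 at T2 (SE 0.28, limma adjusted p 3.24e-05) over T0. Ccr3, the eotaxin receptor of eosinophils, had signals of 4.86, 4.26 and 4.97 at T2 against 2.98, 3.14 and 2.85 at T0. The groups did not overlap, and Ccr3 rose by 1.70 (SE 0.33, limma adjusted p 0.00214), though it was above the olfactory yardstick in no stage. Ccr6, the receptor for Ccl20, rose by 0.87 at T1 over T0 (SE 0.24, limma adjusted p 0.039), though it too was above the yardstick in no stage. That call ended in 10 of 25 alternatives. Without T1 replicate 3 the change was 0.68 (limma adjusted p 0.207), and the call also ended without T1 replicate 2 and without any of the T0 or T2 replicates. The other CC, CX3C and XC receptors (Ccr4, Ccr7, Ccr8, Ccr9, Ccr10, Cx3cr1 and Xcr1) were not called in T1 or T2 against T0.

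Among the CC ligands, Ccl6 and Ccl3 rose and Ccl9 fell. Ccl6, a rodent chemokine made by myeloid cells, had signals of 5.70, 5.61 and 6.47 (T0), 8.78, 8.42 and 8.51 (T1), 9.70, 9.13 and 10.11 (T2), 8.63, 9.47 and 9.26 (T3) and 6.50, 8.47 and 8.23 (T4). The 9 arrays of T1, T2 and T3 all exceeded the T0 arrays, and T4 replicate 1 (6.50) lay just above the highest of them (6.47). Ccl6 rose by 2.64 at T1 (SE 0.44, limma adjusted p 0.0014) and by 3.72 at T2 (SE 0.44, 13.1-fold, limma adjusted p 3.64e-05) over T0. Ccl3, an inflammatory ligand of Ccr1, had signals of 6.06, 6.09 and 7.51 at T2 against 5.11, 4.78 and 4.88 at T0, without overlap, and rose by 1.63 (SE 0.32, limma adjusted p 0.00237). Ccl9, in mouse another ligand of Ccr1, had signals of 5.12, 4.21 and 4.47 at T2 against 6.06, 5.40 and 6.31 at T0. It fell by 1.33 (SE 0.34, limma adjusted p 0.0161), and the call ended in 5 of 26 alternatives, among them the fits without T0 replicate 1 or 3 or T2 replicate 2 or 3, where the limma adjusted p ran from 0.0638 to 0.0898. Ccl5, a T cell attractant, had signals of 6.59, 6.58 and 6.02 at T2 against 5.81, 5.37 and 5.61 at T0. Its change of 0.80 (95% confidence interval 0.17 to 1.43) missed the threshold (limma adjusted p 0.104), although the arrays did not overlap.

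Cxcl12, its signalling receptor Cxcr4 and the receptor Ackr3, which takes up Cxcl12 without G protein signalling, took different courses. Cxcl12 had signals of 8.82, 8.07 and 8.41 (T0), 9.52, 9.92 and 9.75 (T1), 9.79, 8.94 and 9.37 (T2), 9.24, 9.17 and 9.27 (T3) and 7.31, 8.08 and 8.34 (T4). Cxcr4 had signals of 5.62, 5.25 and 5.76 (T0), 8.31, 7.88 and 8.37 (T1), 8.66, 9.16 and 8.90 (T2), 9.36, 8.50 and 8.89 (T3) and 5.05, 8.28 and 8.03 (T4). Ackr3 had signals of 7.77, 7.46 and 7.36 (T0), 6.68, 6.79 and 6.83 (T1), 6.60, 5.85 and 6.03 (T2), 6.68, 6.50 and 6.61 (T3) and 6.59, 5.74 and 5.37 (T4). The T0 arrays were thus the lowest for Cxcr4 among T0 to T3 and the highest of all for Ackr3. Cxcr4 rose by 2.64 at T1 (SE 0.60, limma adjusted p 0.0127) and 3.36 at T2 (SE 0.60, 10.3-fold, limma adjusted p 0.00125) over T0. The T1 call for Cxcr4 ended in 4 of 26 alternatives, over which the limma adjusted p ran from 1.9e-06 to 0.114. It ended without T0 replicate 2 (2.49, limma adjusted p 0.0616), T1 replicate 1 (2.58, limma adjusted p 0.0504) or T1 replicate 3 (2.55, limma adjusted p 0.0548), and with quantile normalization (2.38, limma adjusted p 0.114). The standard deviation of Cxcr4 was 1.80 at T4 against 0.27 at T0 and at T1, and the shared SE includes the T4 arrays. Ackr3 fell by 1.37 at T2 against T0 (SE 0.28, limma adjusted p 0.00345), and its change of -0.76 at T1 was not called (limma adjusted p 0.146).

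Cxcl12 rose by 1.30 at T1 over T0 (SE 0.29, limma adjusted p 0.0101) and by 0.94 at T2 over T0 (SE 0.29, limma adjusted p 0.0453). The first call ended without T0 replicate 2 (1.12, limma adjusted p 0.0655) or T1 replicate 2 (1.20, limma adjusted p 0.0517). The second ended in 13 of 26 alternatives, among them without T0 replicate 2 (0.75, limma adjusted p 0.207) and T2 replicate 1 (0.72, limma adjusted p 0.195), and also without T0 replicate 3, T2 replicate 3 or any T1 or T3 replicate. Marrow markers stood beside these changes: 6 of 6 erythroid genes rose at T1 over T0, the 5 B cell genes averaged 8.71 to 8.84 in the T1 arrays against 5.62 to 5.98 in the T0 arrays, and 5 of 8 osteoblast and osteocyte genes rose. Their part was not tested.

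Cxcl14, a chemokine of epithelia and connective tissue with no settled receptor, had the smallest standard error among the genes that rose at T1 or T2. Its signals were 6.64, 6.60 and 6.35 (T0), 7.89, 7.72 and 7.79 (T1), 7.99, 7.78 and 7.91 (T2), 7.95, 7.91 and 8.08 (T3) and 8.01, 7.83 and 7.84 (T4). All 12 later arrays lay above all newborn arrays, and no later step was called. It rose by 1.27 at T1 (SE 0.16, limma adjusted p 0.000177) and 1.36 at T2 (SE 0.16, limma adjusted p 3.8e-05) over T0, and it had the second smallest F test p of the family after Cxcr2 (adjusted p 3.2e-05 and 5.8e-06).

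Among the other homeostatic ligands, Ccl21, which guides cells bearing Ccr7 into lymph nodes, had signals of 5.08, 4.75 and 4.55 at T2 against 6.41, 5.79 and 6.83 at T0. It fell by 1.55 at T2 (SE 0.27, limma adjusted p 0.00088). Its partner ligand Ccl19 and their receptor Ccr7 were not called at T1 or T2. Cx3cl1, a membrane-bound chemokine, and its receptor Cx3cr1 of monocytes and microglia were called in no comparison. Cx3cl1 stayed between 5.05 and 5.62 in all 15 arrays, and its stage differences ran from -0.04 to 0.14. Cx3cr1 had stage means between 4.73 (T4) and 5.75 (T1), with a wide spread at T0 (4.73, 5.48 and 6.24). The remaining homeostatic ligands Ccl25, Ccl27, Ccl28, Cxcl13, Cxcl16 and Cxcl17 were not called in T1 against T0, T2 against T1 or T2 against T0.

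The interferon-inducible ligands Cxcl9, Cxcl10 and Cxcl11, which attract T cells through Cxcr3, were not called in any pairwise comparison, while most genes of a list of 13 other interferon-stimulated genes rose. Of that list, 9 rose at T1 and 12 at T2 over T0. The antiviral gene Rsad2 rose by 5.57 (SE 0.68, limma adjusted p 0.000109) and the regulator Irf7 by 4.41 (SE 0.58, limma adjusted p 0.000206) at T1. Cxcl10 had signals of 5.18, 5.39 and 5.34 (T0), 5.37, 5.22 and 5.61 (T1), 5.77, 5.37 and 6.06 (T2), 5.03, 5.65 and 5.45 (T3) and 5.33, 5.20 and 5.12 (T4). The arrays overlapped in each comparison. Its change was 0.09 at T1 (95% confidence interval -0.37 to 0.56) and 0.43 at T2 (-0.04 to 0.89) over T0. Cxcl9 changed by 0.34 (-0.45 to 1.12) and 0.68 (-0.10 to 1.46), and Cxcl11 by 0.05 (-0.49 to 0.58) and 0.16 (-0.37 to 0.70), over the same steps. Cxcr3 had signals of 5.06, 5.10 and 5.08 at T2 against 4.70, 4.88 and 5.01 at T0, a change of 0.22 (-0.20 to 0.63). Cxcl9 was highest in T2 replicate 1 (6.25), whereas the interferon-stimulated list was lowest there among the T2 arrays (6.34) and highest in T2 replicate 3 (8.51). Among the T2 arrays, Cxcl10 was highest in replicate 3 (6.06), like the list, and Cxcl11 in replicate 1 (4.03). Cxcl10 was above the olfactory yardstick at T0, T1 and T2, and Cxcl9 and Cxcl11 in no stage.

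Interferon-regulated factors and NF-kB are known inducers of many chemokine genes, and their patterns were looked for in the promoters. Promoter sequence, from 250 bases before to 50 bases after the start, was read from RefSeq (GRCr8) for 41 of the 53 genes, and Ccl11, Ccl2, Ccl3, Ccl4, Ccl5, Ccr10, Ccr4, Ccr7, Ccr8, Ccr9, Cxcl3 and Cxcr5 were not matched. A core of the interferon response element, written GAAANNGAAA, and an NF-kB pattern, written GGGANNNNCC, were searched on both strands, with overlaps between matches allowed. Of all 33469 RefSeq promoters of this length, 3.92% hold the first and 19.3% the second. Among the 41, the first was found in Cxcl10 and Ccl19 and the second in 16 genes. The 3 interferon-inducible ligands hold the NF-kB pattern, as do the 3 neutrophil-attracting ligands with an entry (Cxcl1, Cxcl2 and Cxcl6). Of the 9 matched genes that rose at T1 or T2 over T0, Ccr3 holds it and none holds the interferon core. A match is a description of letters and not a shown binding site, and no match says only that the letters are not in this window. Printed here are 3 genes that rose most, the 3 interferon-inducible ligands and Cxcl1, 5′ to 3′ on the gene's strand, with matches to either pattern in capitals.
Cxcr2, chr9:83178395-83178694, + strand: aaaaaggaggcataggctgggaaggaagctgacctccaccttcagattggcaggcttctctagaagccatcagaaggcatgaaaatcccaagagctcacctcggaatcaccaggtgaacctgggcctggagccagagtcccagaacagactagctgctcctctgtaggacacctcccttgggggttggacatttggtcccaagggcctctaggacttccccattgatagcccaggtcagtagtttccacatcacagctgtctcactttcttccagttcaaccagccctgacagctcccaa
Ccr2, chr8:132611953-132612252, + strand: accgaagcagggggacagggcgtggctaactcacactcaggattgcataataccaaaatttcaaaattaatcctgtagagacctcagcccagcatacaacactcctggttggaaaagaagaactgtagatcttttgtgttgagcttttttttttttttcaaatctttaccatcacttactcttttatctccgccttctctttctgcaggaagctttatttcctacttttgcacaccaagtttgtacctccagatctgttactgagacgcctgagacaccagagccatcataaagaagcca
Ccl6, chr10:68883317-68883616, - strand: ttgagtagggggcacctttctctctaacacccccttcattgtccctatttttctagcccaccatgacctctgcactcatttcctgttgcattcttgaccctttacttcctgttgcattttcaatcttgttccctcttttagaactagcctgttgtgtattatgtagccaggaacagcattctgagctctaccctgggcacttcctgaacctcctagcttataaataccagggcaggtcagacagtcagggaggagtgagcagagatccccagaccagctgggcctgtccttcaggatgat
Cxcl9, chr14:16006916-16007215, + strand: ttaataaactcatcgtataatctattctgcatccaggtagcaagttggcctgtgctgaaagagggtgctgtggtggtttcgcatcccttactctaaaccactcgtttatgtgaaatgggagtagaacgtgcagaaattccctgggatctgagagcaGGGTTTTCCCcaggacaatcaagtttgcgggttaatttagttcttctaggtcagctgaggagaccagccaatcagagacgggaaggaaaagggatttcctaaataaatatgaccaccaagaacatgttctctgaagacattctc
Cxcl10, chr14:15988816-15989115, + strand: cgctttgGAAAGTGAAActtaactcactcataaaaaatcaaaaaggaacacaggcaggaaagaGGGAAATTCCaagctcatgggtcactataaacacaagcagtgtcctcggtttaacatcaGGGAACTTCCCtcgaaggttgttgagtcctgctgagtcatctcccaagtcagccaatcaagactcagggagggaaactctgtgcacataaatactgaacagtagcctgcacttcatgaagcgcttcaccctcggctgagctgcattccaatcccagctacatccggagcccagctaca
Cxcl11, chr14:15973478-15973777, + strand: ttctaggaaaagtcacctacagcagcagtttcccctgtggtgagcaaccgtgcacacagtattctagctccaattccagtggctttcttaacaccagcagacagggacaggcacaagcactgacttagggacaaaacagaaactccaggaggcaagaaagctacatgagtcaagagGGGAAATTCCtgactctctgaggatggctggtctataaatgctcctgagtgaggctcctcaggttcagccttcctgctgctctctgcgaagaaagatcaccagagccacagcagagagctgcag
Cxcl1, chr14:17479272-17479571, - strand: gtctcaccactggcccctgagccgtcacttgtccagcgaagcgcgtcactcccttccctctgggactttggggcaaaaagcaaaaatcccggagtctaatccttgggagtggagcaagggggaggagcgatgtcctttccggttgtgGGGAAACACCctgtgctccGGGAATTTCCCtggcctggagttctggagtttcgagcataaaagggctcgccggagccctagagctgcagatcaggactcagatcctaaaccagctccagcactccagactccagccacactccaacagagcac

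The Cxcr2, Ccr2 and Ccl6 windows hold no capitals, and those of the 4 ligands do. The Ccr2 window (from 132611953 to 132612252) lies inside the gene as annotated, which starts at 132611883. The sequence before that gene start was therefore not searched for Ccr2. In Cxcl10 the interferon core lies at positions -243 to -234 from the start and NF-kB matches at -187 to -178 and, overlapping on both strands, between -128 and -118. In Cxcl1, 3 NF-kB matches lie between -103 and -74, the last pair overlapping.

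**Figure D3:**
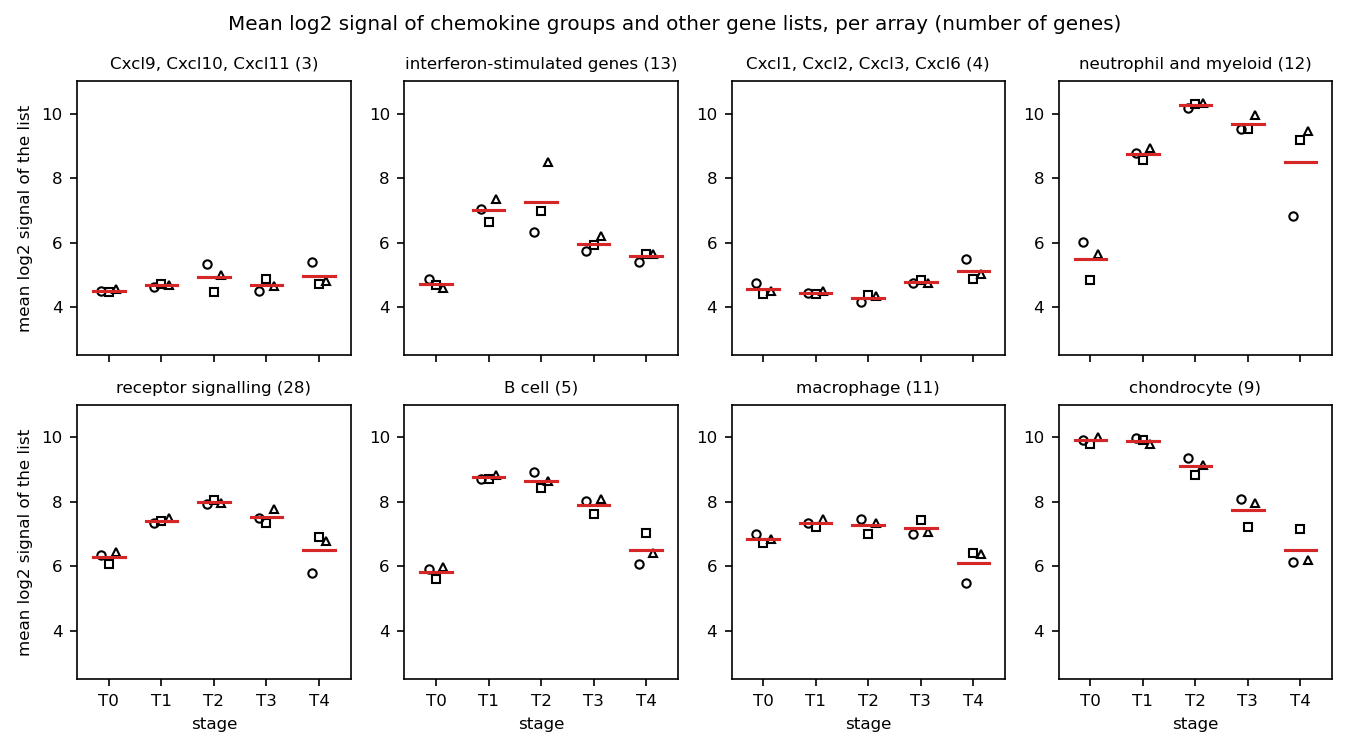
Mean log2 signal of 2 chemokine groups and 6 other gene lists in each array by stage (circle, square and triangle for replicates 1, 2 and 3; red line for the mean; number of genes in brackets). The interferon-stimulated list averages 7.01 at T1 against 4.72 at T0 and the neutrophil and myeloid list 8.75 against 5.50, beside nearly level chemokine groups. In the 2 chemokine groups, only Cxcl2 and Cxcl10 were above the olfactory yardstick in any stage.

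Many genes that transmit chemokine receptor signals in leukocytes rose. Of 28 measured genes of this list, 13 rose at T1 and 17 at T2 over T0, and none fell. Their median change was 0.93 at T1 and 1.42 at T2, against -0.03 and -0.01 over all probe sets. Arrb2, which desensitises receptors, rose by 2.78 at T2 over T0 (SE 0.19, limma adjusted p 2.95e-07), the kinase Fgr by 2.77 (SE 0.23, limma adjusted p 1.62e-06) and the phospholipase Plcb2 by 3.22 (SE 0.32, limma adjusted p 7.8e-06). Of 4 chemokine-related genes with other names, Ppbp, Ccrl2 and Cklf rose at T1, and these and the platelet chemokine Pf4 rose at T2. Several genes of these lists are known as leukocyte genes, so the lists are not independent of the leukocyte markers.

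Many of these genes sit side by side, and neighbours did not always move alike. In the RefSeq gene order (GRCr8), 35 of the 53 genes lie in 10 runs of neighbours with at most 2 other coding genes between them. In the run Ccl5, Ccl9, Ccl6, Ccl3, Ccl4, the adjacent Ccl9 fell and Ccl6 and Ccl3 rose at T2 against T0, while Ccl5 and Ccl4 were not called. In the run Ccl2, Ccl7, Ccl11, Ccl12, Ccl1, Ccl2 alone was called. In the run Ccr9, Cxcr6, Xcr1, Ccr1, Ccr3, Ccr2, the 3 genes at the end, Ccr1, Ccr3 and Ccr2, rose by 2.37, 1.70 and 4.53 and the first 3 were not called. Cxcr2 rose by 4.92 and the adjacent Cxcr1 changed by -0.12. Ccl7, Ccl11, Ccl12, Ccl1, Ccl4, Ccr9, Cxcr6 and Cxcr1, none called at T2 against T0, were above the olfactory yardstick in no stage. Low signal limits what can be said of a missing call in these genes. Ccr3, which rose, was also above the yardstick in no stage. The differences between neighbours were not tested.

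**Figure D4:**
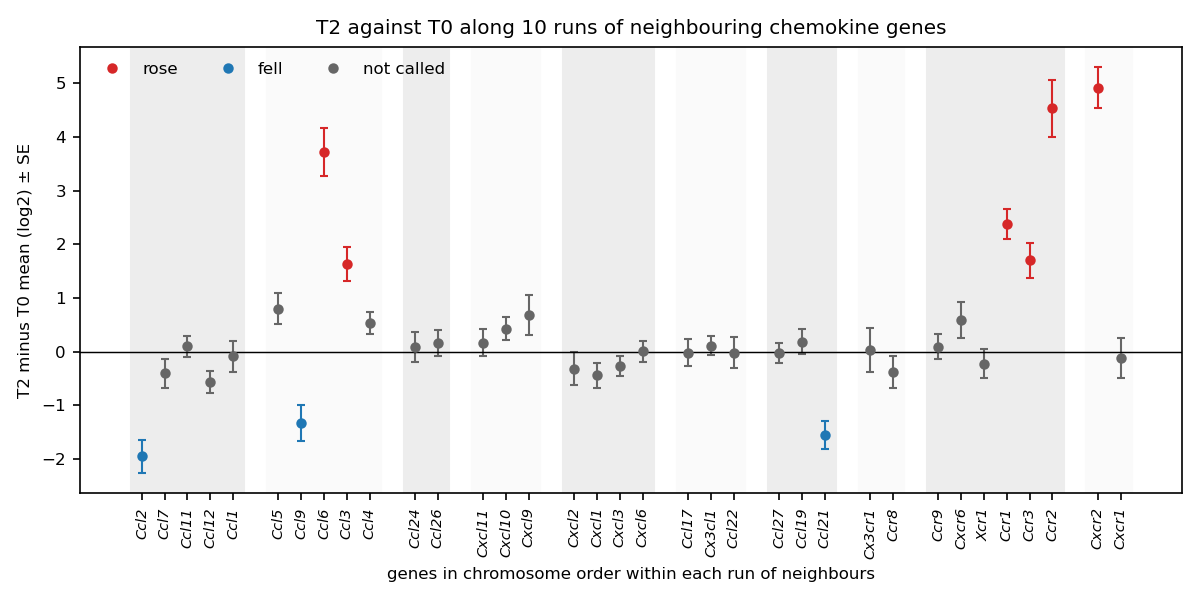
Change of T2 over T0 (log2, point, with its standard error) for 35 genes in 10 runs of neighbouring genes, in chromosome order within each shaded run; red rose, blue fell and grey was not called. Ccl9 (-1.33) lies between the uncalled Ccl5 and Ccl6 (3.72), and Ccr1, Ccr3 and Ccr2 rise together at the end of their run.

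Between adult and early old age, 1 member was called, against 0.150% of all probe sets and 0.138% of named genes (0.116% fell). Cxcr2 fell by 2.10 at T3 against T2 (SE 0.38, limma adjusted p 0.0489). This call lay at the threshold and ended in 14 of 25 alternatives, with adjusted p up to 0.193. The count of members called was 9 without T3 replicate 3 and 5 without T4 replicate 1, where 11.4% and 5.35% of all probe sets were called, and it was 0 in 11 of the other fits that left out an array. A total of 12 members had an unadjusted p under 0.05, beside 19.8% of all probe sets, among them Ccr2, whose change was -1.86. The T3 arrays did not overlap with the T2 arrays for 14 of 53 members, beside 26.5% of all probe sets. The neutrophil and myeloid markers averaged 9.51 to 9.97 in the T3 arrays against 10.17 to 10.35 in the T2 arrays.

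Late old age differed from early old age in both directions. At T4 against T3, 11 members rose and 8 fell, beside 42.2% of all probe sets and 46.3% of named genes called (14.0% rose and 32.3% fell among named genes). Arrays did not overlap for 21 of 53 members, beside 41.6% of all probe sets. With quantile normalization 12 members rose and 3 fell, and among all probe sets rises made up 51.4% of the calls, against 39.0% as deposited. Without T4 replicate 1 or without T3 replicate 3 the count was 12 in place of 19, in each case 9 that rose and 3 that fell. With only the 6 arrays of T3 and T4 in the fit it was 2, beside 6.9% of all probe sets.

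The genes that fell had all risen at T1 or T2 over T0, except Cxcl16. Cxcr4 fell by 1.80 (SE 0.60, limma adjusted p 0.0284), Ccr2 by 1.55 (SE 0.53, limma adjusted p 0.0296), Ccl6 by 1.39 (SE 0.44, limma adjusted p 0.0225), Cxcl12 by 1.31 (SE 0.29, limma adjusted p 0.00336) and Cxcr2 by 1.14 (SE 0.38, limma adjusted p 0.0263). Ccr3, Cxcl16, the ligand of Cxcr6, and Ccr6 fell by 0.86, 0.82 and 0.63. Several of these changes were smaller without T4 replicate 1. Cxcr4 then changed by -0.76 (limma adjusted p 0.0463), Ccl6 by -0.77 (limma adjusted p 0.0941) and Ccr2 by -1.01 (limma adjusted p 0.143). Cxcr2, which had fallen by 1.14, then changed by -0.97 (limma adjusted p 0.0921). Of these calls, that of Cxcr4 held without T4 replicate 1, and all 4 ended without T3 replicate 3. The call of Cxcr4 also ended without T3 replicate 1, that of Ccl6 without T3 replicate 2 and that of Cxcr2 without T4 replicate 3 (limma adjusted p from 0.0558 to 0.128). The calls of Ccr3, Ccr6 and Cxcl16 ended in 15 of 23, 16 of 23 and 7 of 24 alternatives. With quantile normalization 5 of the 8 calls ended: Cxcl12 changed by -0.45 (limma adjusted p 0.172), Ccl6 by -0.68 (limma adjusted p 0.22), Ccr2 by -1.30 (limma adjusted p 0.105), Cxcr2 by -0.93 (limma adjusted p 0.0651) and Cxcr4 by -1.43 (limma adjusted p 0.153). The neutrophil and myeloid markers averaged 6.84, 9.18 and 9.45 in T4 replicates 1, 2 and 3 against 9.51 to 9.97 in the T3 arrays. Of these markers 5 of 12 fell, beside 32.3% of named genes. Cxcl14, Ccr1 and Ccl3, which had also risen, were not called at this step. Of the signalling genes, 18 of 28 fell and none rose.

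The genes that rose at T4 were all of low signal. They were the receptors Cxcr5 (1.69, SE 0.24), Cxcr1 (1.49, SE 0.37), Ccr8 (1.34, SE 0.30), Ccr9 (1.27, SE 0.24), Ccr10 (1.19, SE 0.21) and Ackr2 (0.68, SE 0.19), and the ligands Ccl26, Ccl21, Cxcl1, Ccl19 and Ccl11 with changes from 0.57 to 1.02. Cxcr5, the receptor that brings B cells to follicles, had signals of 6.27, 5.40 and 5.53 at T4 against 4.15, 3.87 and 4.12 at T3. Cxcr1 had signals of 6.40, 4.33 and 5.59 at T4 against 4.12, 4.14 and 3.61 at T3. Ccr8, a receptor of T cell subsets, had signals of 6.98, 6.11 and 5.99 at T4 against 4.92, 5.50 and 4.65 at T3. In all 3 genes the T4 arrays lay above the T3 arrays, and the same held for the gut-homing receptor Ccr9 (4.68, 4.45 and 4.75 at T4 against 2.89, 3.60 and 3.60 at T3). The calls of Ccl19 and Ccl11 ended in 14 and 4 of 24 alternatives. The T3 means of the 11 genes lay between 3.36 and 5.26, and none was above the olfactory yardstick at T3 or at T4, whereas 5 of the 8 that fell were above it at T3. The olfactory receptor probe sets themselves had a median change of 0.54 at T4 over T3, and 36.9% of them rose. The part of this shift in the 11 rises was not tested. The 5 B cell markers, which belong to the cells that bear Cxcr5, fell, averaging 6.09 to 7.03 in the T4 arrays against 7.63 to 8.10 in the T3 arrays.

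**Figure D5:**
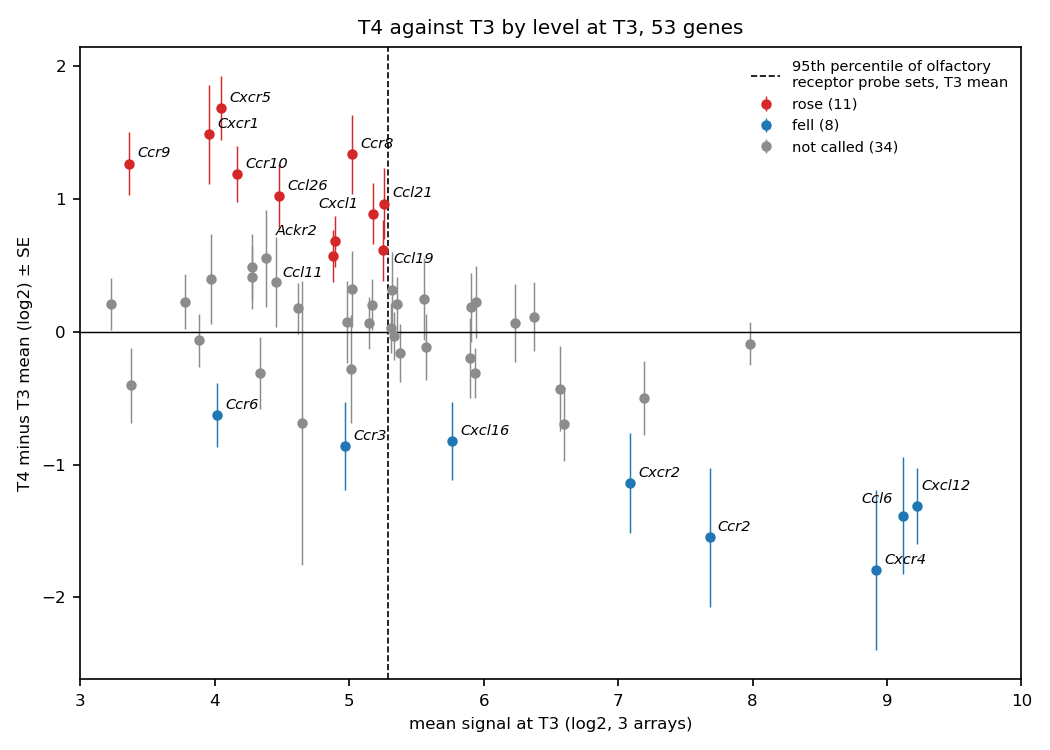
Change of T4 over T3 (log2, with its standard error) against the mean log2 signal at T3 for the 53 genes; red rose (11), blue fell (8), grey was not called (34), and the dashed line is the mean T3 olfactory percentile of 5.29. All genes that rose have T3 means of 5.26 or less, and those that fell span 4.02 to 9.22.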

How the data were processed

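Total RNA was extracted with Trizol and hybridised to Affymetrix rat gene arrays, per the labels' protocols. The authors' deposited values are log2 signals of 36685 probe sets in 15 samples. The submitters' processing notes name RMA, with version and genome build not given in the sources used here. RMA evens out the distribution of probe signals over arrays, which can hide a shift common to most genes while leaving differences in an array's range. The main values were used as deposited. Medians of the arrays were 4.94 to 5.28. Precision is limited by the number of arrays.

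The stage in the title set each sample's group. T1 replicate 3 is adult in its source name and youth in its other labels, and was kept in youth. Probe sets were named from the platform annotation where it gave 1 symbol (18511 probe sets, with 575 carrying several and 17599 none), and all 53 members matched the RefSeq gene table. For each gene the probe set with the highest mean stood for it. The members and the role, pathway and cell type marker lists were chosen with earlier results of these data known.

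All probe sets of the 15 arrays were fitted with 1 mean for each stage in limma 3.58.1 in R 4.3.3 (lmFit, eBayes), with 5 pairwise comparisons, a moderated F test and Benjamini-Hochberg adjustment within each. The code was tested on simulated data. Any member may be named. Values by array are given for up to 8 called members with the largest change per comparison and for set ligand and receptor pairs, and up to 3 called genes per pathway list are named. The low-signal yardstick was planned on probe sets named Olr with a number (69). Since the annotation names most olfactory receptors Or and gives Olr1 to a lipoprotein receptor, it was widened to 1194 probe sets after seeing the data, and the planned version is given in the closing section. The labels do not state that replicate numbers pair samples, and the main fit did not pair them. Deviations of same-numbered samples had a mean correlation of -0.02 (from -0.19 to 0.12), and other pairs of 0.01. With 3 arrays per stage, these correlations cannot show that the numbers share no batch. Alternatives changed the normalization, the weighting of arrays, the low-signal filter, the variance prior, the arrays in the fit and the place of T1 replicate 3.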

Additional observations from a re-analysis of the deposited data

How the results depend on the processing

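No change of a member turned its direction under any alternative in a comparison where it was called. With the replicate number as a block, 8, 1, 12, 1 and 16 members were called at T1 against T0, T2 against T1, T2 against T0, T3 against T2 and T4 against T3, and 30 in the F test, against 9, 1, 13, 1, 19 and 31. Leaving out each array in turn gave 6 to 11, 0 to 1, 11 to 14, 0 to 9, 12 to 17 and 28 to 33 members in the same order. Array weights, which give less weight to arrays far from their stage, called 7 members at T2 against T1, 20 at T2 against T0, 19 at T3 against T2 and 47 in the F test, beside 6.49%, 25.2%, 28.5% and 82.7% of all probe sets. Fits of only the 6 arrays compared called 2 at T2 against T1, 0 at T3 against T2 and 2 at T4 against T3. These stood beside 1.62%, 0% and 6.9% of all probe sets. The same fits called more than the main fit at T1 against T0 (12) and at T2 against T0 (18). There 14.6% and 19.4% of all probe sets were called. In these fits fewer arrays estimate the spread. A fit without T3 and T4 called 2 at T2 against T1, and one without T4 called 4 at T3 against T2 and 19 in the F test. T1 replicate 3 placed with T2 left 0 at T2 against T1 and 0 at T3 against T2, and quantile normalization left 0 at T3 against T2. The cause of these moves was not tested. Quantile normalization also changed the share of rises among all called probe sets, to 42.9% against 54.7% at T2 against T1 and to 0% against 25.5% at T3 against T2. Centring arrays on their medians moved the median of all probe sets at T4 against T3 to -0.13. The planned olfactory yardstick of 69 probe sets put 8, 16, 11, 8 and 2 members above it from T0 to T4, against 21, 27, 23, 17 and 2 with 1194. Signal at or below the yardstick limits what can be said of the other genes.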

Other observations

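Of 9 other leukocyte chemoattractant receptors measured, 4 rose and 1 fell at T2 against T0, beside 9.25% of named genes that rose and 9.56% that fell. Fpr1, the formyl peptide receptor of neutrophils, rose by 4.49 (SE 0.51, limma adjusted p 2.43e-05), the sphingosine phosphate receptor S1pr4 by 2.44 (SE 0.18, limma adjusted p 6.39e-07), the platelet activating factor receptor Ptafr by 1.62 (SE 0.20, limma adjusted p 6.41e-05) and the leukotriene B4 receptor Ltb4r by 1.30 (SE 0.24, limma adjusted p 0.00147). At T4 against T3, 3 of the 9 rose, beside 14.0% of named genes, and Fpr1 fell by 1.56 (SE 0.51, limma adjusted p 0.0251).

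Cxcl13, which draws B cells through Cxcr5, stood out in single arrays. Its log2 signal was 8.62 in T2 replicate 1 and 6.27 in T3 replicate 3, and between 3.03 and 4.99 in the other 13 arrays. It was called in no comparison (T2 over T0, 1.20 with SE 1.07). The B cell markers averaged 8.92 in T2 replicate 1, the highest of the T2 arrays, against 8.42 in the lowest. In T3 replicate 3 they averaged 8.10, the highest of the T3 arrays. In the T1 arrays they averaged 8.71 to 8.84, while Cxcl13 was 4.99, 3.30 and 3.26. A link between the 2 was not tested.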
